A study of Mus musculus with 2 samples.

Results

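Signals of 10 alpha and beta tubulin genes were compared between control lens and lens of Foxp1 knockout mice, both newborn, with 1 array each. The genes were Tuba1a, Tuba1b, Tuba1c, Tuba4a, Tuba8, Tubb2a, Tubb2b, Tubb3, Tubb4a and Tubb5, taken by matching the RefSeq transcript accessions of the probes to mouse gene symbols, out of 20655 genes that received a symbol. They were read by 12 probes, and each of the 10 genes was well above background in both samples. The list was chosen by the measured differences between these arrays, so the values below describe this pair of arrays and test nothing.

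The control array carried RNA of a wild-type litter mate and the other array RNA of a Foxp1 KO lens, both at postnatal day 0 on a C57BL/6 mixed background. The treatment text of both samples names Foxp1-flox/flox and the Cre driver Pax6-L-Cre, so whether the control carried either is not settled by the labels, nor is the number of animals behind each RNA. With 1 array a genotype there was no replicate and no test, and animal, array position on the slide and genotype cannot be told apart. Total RNA was isolated with Trizol and hybridised to Agilent arrays in 1 colour, Cy3.

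Alpha and beta tubulin form the heterodimer from which microtubules are built, and separate genes encode several closely related forms of each. Cells hold free tubulin in check by autoregulation, in which excess dimers trigger decay of tubulin mRNAs while they are being translated. In the lens, epithelial cells turn into long fibre cells whose microtubules run along the cell and carry vesicles to its membranes, and microtubules of dividing epithelial cells form the mitotic spindle. Tuba1a, Tubb2b and Tubb3 are best known from developing neurons, whereas Tuba1b, Tuba1c and Tubb5 are made in many dividing cells.

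Differences are log2 values, knockout minus control, of the background-subtracted spot signal after each array was divided by its own 75th percentile (283 for control and 279.9 for knockout lens). A gene was called when it differed by at least 2-fold, or 1 on this scale. The error beside a value is a spot SD, taken from 281 probes printed at least 5 times and read in 5 classes of signal. For each probe the variances over its repeated spots on the control and the knockout array were added, and these sums were pooled within a class. For a gene with several probes the error was divided by the square root of their number. It covers spot noise only. Foxp1, the targeted gene, was lower with each of its 3 probes, at 3460.2 and 970, 1677 and 464, and 97.5 and 38.4 in control and knockout lens, and whether a probe lies in the deleted part is not given in the sources used here. Lens identity of both samples was plain from the crystallins, the refractive proteins of the lens, whose probes were among the brightest: Cryab read 447835 and 468186, Cryba1 430153 and 412263, and none of 12 lens markers was 2-fold apart. Of 6 lens epithelium markers 4 lay below 0, with a median of -0.06. Npnt was 2.08-fold lower, with probes at -1.26 and -0.84, and Gja1 lay at -0.70, both below the median gene in signal. Of 9 lens fibre markers, some also among the 12, 7 lay below 0, with a median of -0.04. None of these was 2-fold apart, and Lgsn lay lowest at -0.67. Over all 14254 genes measured on both arrays the median difference was 0.0060, and over the 7127 brighter genes, those with a signal no lower than the median gene, it was 0.082 with an SD of 0.31 over genes.

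Tuba1a, an alpha tubulin abundant in young neurons, read lower on the knockout array and was the member that passed 2-fold. Its only spot lies in the last array column, where other bright spots also read low on that array. The other alpha tubulins went both ways, with Tuba1c higher, Tuba1b nearly equal and Tuba4a and Tuba8 lower. The 5 beta tubulins of this group all lay above 0, between 0.084 and 0.46, a range in which the sign of the lowest, Tubb5, turned under another scaling. Beta tubulins outside the group and measured on both arrays were Tubb4b, at 0.02, and Tubb6, at -0.28. Of the 10 genes 7 lay above and 3 below 0, with a median of 0.22, against 50.9% of all measured genes and 67.8% of the brighter genes above 0. At least 2-fold lower was 1 of the 10, where 5.86% of all measured genes and 0.393% of the brighter genes were that low. None of the 10 was at least 2-fold higher, against 1.02% of all measured genes and 0.842% of the brighter ones. Only Tuba8 was dimmer than the median gene. Array scaling bears on every value. Division by the array medians raised all genes by 1.08, and a 75th percentile over measured probes alone lowered all by 0.13. The former turned Tuba4a and Tuba8 above 0, and the latter turned Tuba1b and Tubb5 below 0. The other members kept their sign under every setting that gave them a value, though several settings left their values unchanged. In bulk RNA, fewer cells of a type and less RNA per cell cannot be told apart.

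**Figure D1:**
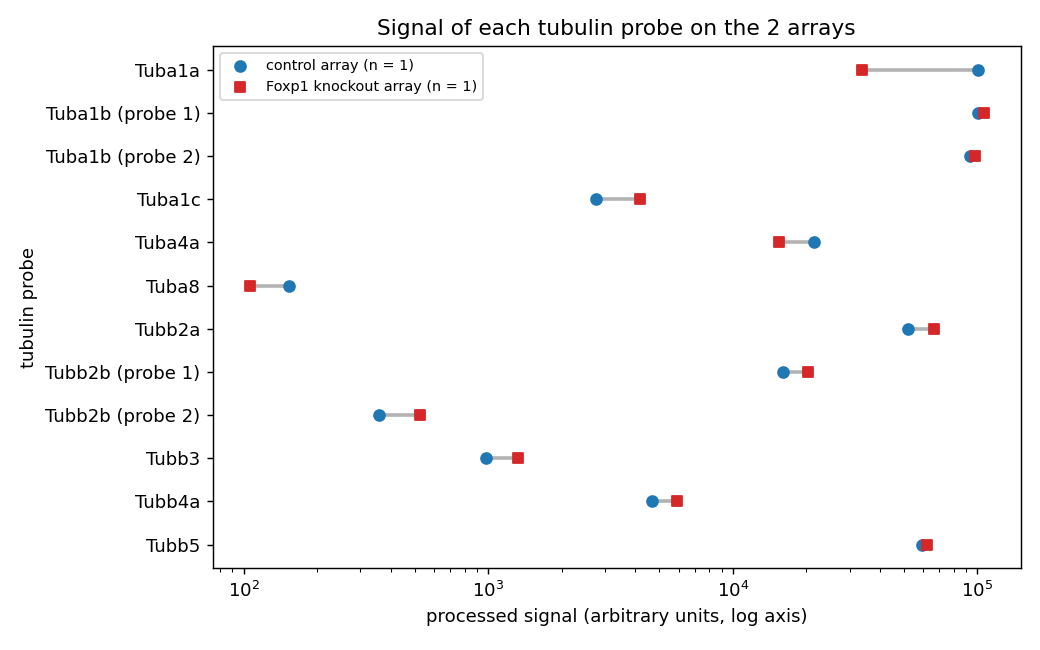
Processed signal of each of the 12 tubulin probes on the control array (circles) and the Foxp1 knockout array (squares), in arbitrary units on a log axis, with a bar joining the pair. The widest gap is that of Tuba1a, from 100278 to 33818, while the bars of Tuba1b and Tubb5 are short.

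The Tuba1a probe read 100278 in control lens and 33818 in knockout lens. That is a difference of -1.55 ± 0.13 (spot SD), or 2.94-fold lower. Of the 200 genes nearest to Tuba1a in mean signal 0 were as low, and their differences ran from -0.23 to 0.28 between the 5th and 95th percentiles. Among the 7127 brighter genes 7 were as low or lower, Tuba1a included. Division by the array medians put Tuba1a at -0.48, no longer past 2-fold. Added spike-in RNAs of comparable brightness, each a median over 35 spots, were nearly equal. One read 51540 and 50153, a difference of -0.03, and a brighter one 248525 and 243346, a difference of -0.02. Medians over many spots do not show how a single spot reads.

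The single Tuba1a spot lies in column 164, the last column of the array, at row 294. Bright spots in that column read low on the knockout array. Of 76 other spots there with a mean signal at or above the 75th percentile, 9 were at least 2-fold lower, or 11.8%, against 0.56% of 14337 such spots in columns 3 to 162. The median difference of the last column was -0.22, against 0.075 for the inner columns, and the next to last column lay between them with a median of -0.03 and 8.33% of 96 spots at least 2-fold lower. The lowest median of an inner column was -0.01, and the highest share of spots that low was 3.26%. In the last column 4 of the 76 other spots were as low as Tuba1a or lower, and the kinesin gene Kif5c, at row 322, read -1.54. Within 5 rows and columns of the Tuba1a spot lay 16 other such spots, with a median of -0.11. Of these 2 were at least 2-fold lower, the lowest at -1.42, and 0 were as low as Tuba1a.

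Probes printed several times allowed the same sequence to be read in and away from that column. The nearest to the Tuba1a spot was the Aga probe, for a lysosomal enzyme, at row 303. On the knockout array its spot in the last column read 450.03 against a median of 638 over 9 other spots, a difference of -0.50, while on the control array it read 670.4 against 701, a difference of -0.06. The Nup153 probe, for a nuclear pore protein, read 274 in the last column against 1228 elsewhere on the knockout array, a difference of -2.16, and 694 against 1131 on the control array, a difference of -0.70. The third such probe, 2700049A03Rik, differed by -0.16 in knockout and -0.02 in control lens. All 3 probes thus read lower in the last column than elsewhere, and each more so on the knockout array. Centring each column on its median difference, a step added after these values were seen, left Tuba1a at -1.26. Leaving out the outermost columns left Tuba1a with no value and no tubulin at least 2-fold lower (0 of 9). No other probe matched Tuba1a, so how much of its difference belongs to the place of the spot was not tested. The spot SD of 0.13 comes mostly from spots inside the array and need not hold at its edge.

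**Figure D2:**
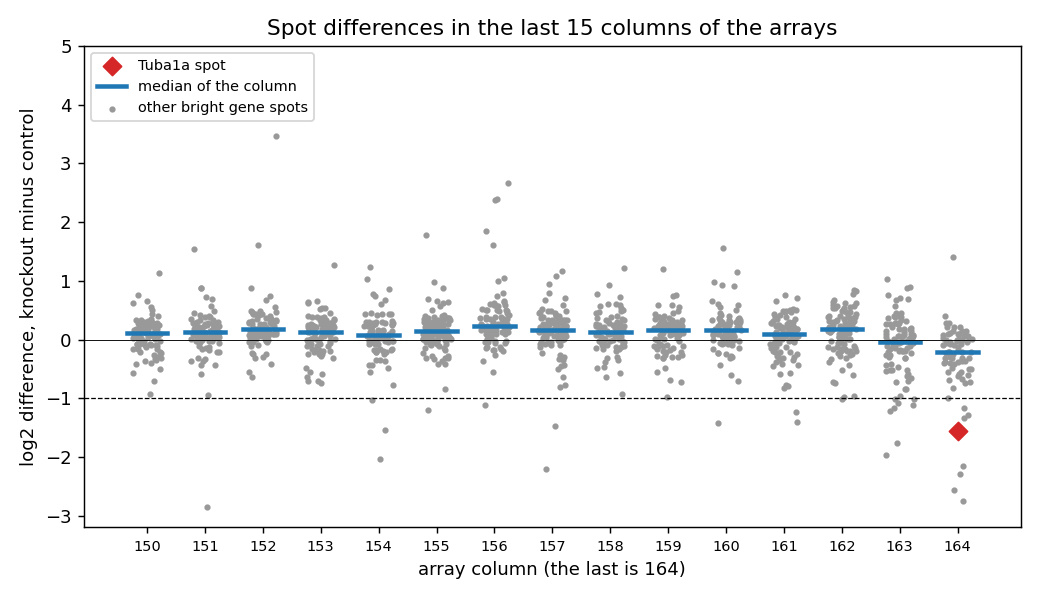
Log2 difference (knockout minus control) of single bright gene spots in the last 15 columns of the arrays, with the median of each column as a bar and the Tuba1a spot as a diamond. The bar drops in columns 163 and 164, and the Tuba1a spot at -1.55 sits in the last column among other low spots.

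Tuba1b, a widely made alpha tubulin, was read by 2 probes away from the edge. One gave 93564 in control and 98117 in knockout lens, the other 100796 and 106218. Both were slightly brighter on the knockout array, by 0.082 and 0.089, and the gene difference of 0.086 ± 0.089 was smaller than spot noise. It stood at percentile 51.0 of the brighter genes, and its sign turned to -0.04 with the 75th percentile over measured probes.

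Tuba1c, an alpha tubulin of proliferating cells, was the member with the highest difference. Its signal was 2752 in control lens and 4160.0 in knockout lens, a difference of 0.61 ± 0.13, or 1.53-fold. Of the 200 genes nearest in signal 1 was as high.

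Tuba4a encodes an alpha tubulin that lacks the genetically encoded last tyrosine of most other forms. It stood at 21577 in control lens and 15377 in knockout lens, a difference of -0.47 ± 0.13, or 1.39-fold lower. Of the 200 nearest genes 3 were as low. Tuba8, the most divergent alpha tubulin of the group, was dim at 153 and 106, and its difference of -0.52 ± 0.26 was matched or exceeded by 36 of the 200 nearest genes. Division by the array medians turned both above 0, at 0.60 and 0.56. Relative to the median of all genes both stayed below 0 under each of 10 settings, some of which cannot change that value.

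The genes Tuba1a, Tuba1b and Tuba1c all lie on chromosome 15, and they show the contrast among the alpha tubulins: lower, nearly equal and higher. The lower reading, that of Tuba1a, comes from the single spot in the last array column. Their promoters are printed so that the upstream sequences of the 3 genes can be compared, and any part of these sequences in the readings was not tested. Each is the 250 bases before the RefSeq start (GRCm38.p6), 5′ to 3′ along the gene. Capitals mark matches, on either strand, to the CCAAT box (CCAAT), the GC box (GGGCGG), the TATA box (TATAAA) or a forkhead core (TGTTTAC or TGTTTAT or TATTTAC), none of which overlap in these windows.
Tuba1a, minus strand, chr15:98953502-98953751: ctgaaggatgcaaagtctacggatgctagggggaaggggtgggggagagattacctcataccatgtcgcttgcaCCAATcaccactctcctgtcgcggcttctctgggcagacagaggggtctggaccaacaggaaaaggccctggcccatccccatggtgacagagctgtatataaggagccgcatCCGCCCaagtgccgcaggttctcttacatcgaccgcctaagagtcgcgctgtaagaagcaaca
Tuba1b, minus strand, chr15:98934391-98934640: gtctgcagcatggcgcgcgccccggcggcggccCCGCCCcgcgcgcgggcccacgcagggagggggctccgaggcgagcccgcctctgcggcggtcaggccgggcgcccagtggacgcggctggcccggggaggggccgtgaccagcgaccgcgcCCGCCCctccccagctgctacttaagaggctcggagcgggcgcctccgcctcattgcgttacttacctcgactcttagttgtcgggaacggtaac
Tuba1c, plus strand, chr15:99029641-99029890: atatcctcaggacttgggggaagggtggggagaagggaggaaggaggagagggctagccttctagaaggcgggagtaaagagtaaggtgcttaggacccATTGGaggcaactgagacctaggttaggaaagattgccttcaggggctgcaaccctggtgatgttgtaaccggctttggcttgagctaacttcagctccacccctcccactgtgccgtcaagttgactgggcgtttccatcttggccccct
The Tuba1a window holds 1 CCAAT match 176 bases before the start and 1 GC box match 63 bases before it. The Tuba1b window holds 2 GC box matches, at 217 and 95 bases, and is 75.6% G and C, against 56.8% for Tuba1a and 55.6% for Tuba1c. In the Tuba1c window the CCAAT match stands 151 bases before the start, on the opposite strand.

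Promoters of 9 members were in the table. A forkhead core was in 0 of the 9, against 9.44% of 32536 promoter windows of the same length. A CCAAT match was in 4 of the 9 (Tuba1a, Tuba1c, Tubb3 and Tubb5) against 33.8% of all, and a GC box match in 5 of the 9 against 33.0%. The TATAAA letters were in the Tubb2a window alone, 29 bases before the start, against 12.3% of all. These are matches of letters in short windows and say nothing of what binds there.

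Among the beta tubulins, Tubb5, the widely made form, read 59314 in control lens and 62292 in knockout lens. Its difference of 0.084 ± 0.13 was inside spot noise and stood at percentile 50.7 of the brighter genes, and its sign turned to -0.04 with the 75th percentile over measured probes.

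Tubb2a read 51899.6 and 66539.9, a difference of 0.37 ± 0.13. Of the 200 genes nearest in signal 5 were as high. A probe for the pseudogene Tubb2a-ps2 gave nearly the same difference, 0.35, at signals of 4151 and 5233, and whether one probe also reads the RNA of the other was not tested.

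Tubb2b, a beta tubulin needed in migrating neurons, was read by 2 probes that went the same way. The brighter read 16077 and 20279.7, a difference of 0.35, and the dimmer 358 and 527, a difference of 0.57. The gene difference was 0.46 ± 0.089, or 1.38-fold, and 9 of the 200 nearest genes were as high.

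Tubb3, the beta tubulin used to mark neurons, read 976 and 1325, a difference of 0.46 ± 0.16. It was matched or exceeded by 18 of the 200 nearest genes. Tubb4a, a form rich in brain and oligodendrocytes, read 4688 and 5933, a difference of 0.35 ± 0.13, with 12 of 200 as high.

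**Figure D3:**
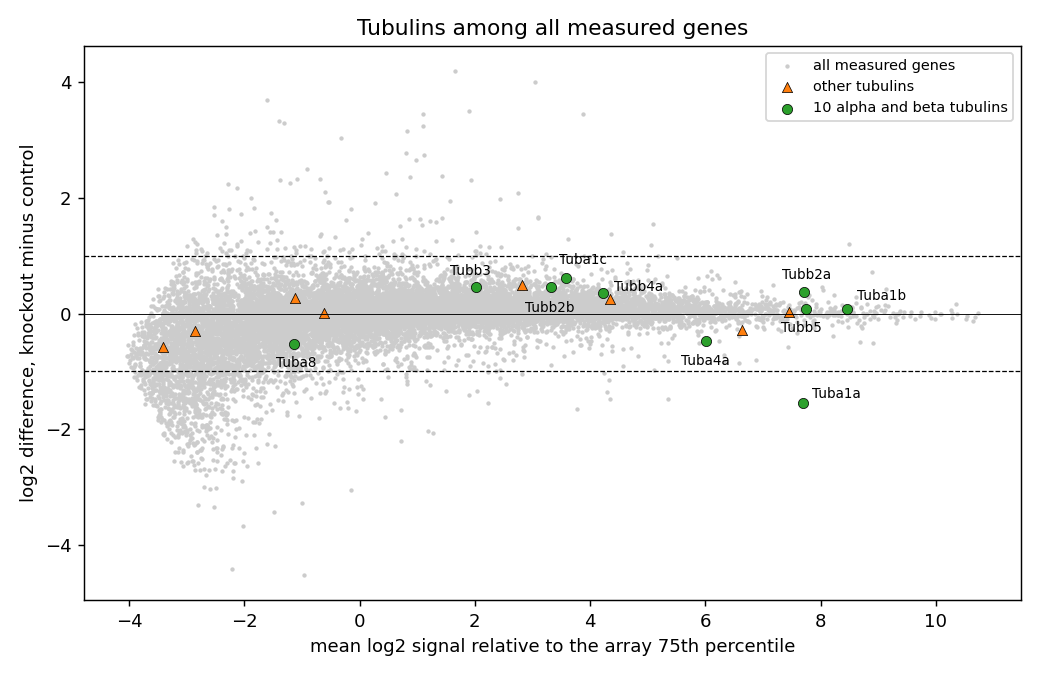
Log2 difference (knockout minus control) against mean log2 signal for all 14254 measured genes (grey), the 10 alpha and beta tubulins (circles) and the other measured tubulins (triangles), with dashed lines at 2-fold. Tuba1a, read by a single spot in the last array column, lies apart from genes of its brightness. The 5 beta tubulins among the 10 lie at or above 0.

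The members differed from one another by more than spot noise in many pairs. Of the 45 pairs of members, 27 were apart by more than 2 spot SDs of the pair, and all 9 pairs with Tuba1a were among them. The members were chosen by their differences, and no such count was made over pairs of other genes. The brighter genes had an SD of 0.31 over genes. The spot SD used for Tuba1a need not hold at the array edge. The smallest gap between Tuba1a and another member was 1.03, to Tuba8. Without Tuba1a, the remaining members spanned -0.52 to 0.61 with a median of 0.35 and 18 of 36 pairs were that far apart. Probe sequences were not used here, and tubulin genes are closely related in their coding parts, so reading of one gene's RNA by another's probe was not tested.

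The 10 tubulin genes outside this group were a further list. Measured on both arrays were 8, of which 5 lay above and 3 below 0, none passed 2-fold, and the median was 0.01. Tubb4b, a common beta tubulin, read 49213 and 49580 (0.02 ± 0.13), and Tubb6 read 30838 and 25242 (-0.28 ± 0.13). The gamma tubulins seed new microtubules: Tubg2 lay at 0.49 ± 0.16 and Tubg1 at 0.25 ± 0.13. Tubd1 and Tube1, of centrioles, lay at 0.27 and 0.0029, and the testis forms Tuba3a and Tuba3b were dim at -0.57 and -0.30. Tubb1, the beta tubulin of platelets, was well above background on the control array alone, at 63.4 against 8.18, which is at least 5.18-fold lower. Tubal3 was not well above background on either array. This is the dim range in which spike-in RNAs also read lower with the knockout. In control and knockout they read 81.0 and 38.3, or -1.07, then 52.9 and 6.86, or -2.93, and 19.9 and 3.59, or -2.46. The signs of Tubb4b and Tube1 turned with the 75th percentile over measured probes, that of Tube1 also with centred columns, those of Tubb6, Tuba3a and Tuba3b with division by the array medians, and those of Tuba3a and Tuba3b also with quantile and loess normalization.

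Genes that fold tubulin lay close to 0. The chaperonin ring and prefoldin receive the new chains, and the cofactors of the Tbc family join alpha to beta. Of 22 measured 12 lay above and 10 below 0, none passed 2-fold in either direction, and the median was 0.03, with differences from -0.28 to 0.26. Cct3, a chaperonin subunit, lay highest at 0.26, and Pdcl3, a chaperonin cofactor, and the prefoldin gene Pfdn4 lay lowest at -0.28 and -0.26, this pair at signals below the median gene. Ttc5, which recognises new tubulin chains during autoregulation, read 757 and 753 with its brighter probe, and its gene difference was -0.04.

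Of 20 measured genes for enzymes that modify tubulin, 8 lay above and 12 below 0, with a median of -0.03. The carboxypeptidase gene Agbl3, for an enzyme that trims glutamates, was 2.47-fold lower, at 41.5 and 16.6, both dim. The ligase genes of the Ttll family, which add glutamate or glycine chains, went both ways, with Ttll6 at -0.64, Ttll10 at -0.59 and Ttll11 at 0.39. None was at least 2-fold higher. Of all measured genes 5.86% were at least 2-fold lower and 1.02% at least 2-fold higher.

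Genes for proteins that bind microtubules lay mostly above 0. Of 30 measured 26 were above and 4 below 0, none passed 2-fold, and the median was 0.24. Above 0 were 50.9% of all measured genes and 67.8% of the brighter genes, and 23 of the 30 were among the brighter. Stmn2, a stathmin of growing axons, read 997 and 1825, a difference of 0.89. Mapt, which encodes tau, the axonal microtubule protein, was read by 3 probes at 0.93, 0.70 and 0.71. Stmn3, another neuronal stathmin, lay at 0.75. The list ran from -0.72 to 0.89, and its median stayed above 0 under 10 alternatives, whereas those of the folding, modifying and nucleation lists turned sign under at least 1. Of 12 microtubule nucleation genes 5 lay above and 7 below 0 with a median of -0.03, none passed 2-fold, and the spindle pole gene Aspm lay at 0.89, Tubgcp6 at -0.63 and Tubgcp4 at -0.56.

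Most markers of neurons were higher on the knockout array, as were Tubb3, Tubb2b, Stmn2, Stmn3 and Mapt. Other neuronal genes of the microtubule binding list were mixed. Map1b lay at 0.71, Stmn4 at 0.53, Map2 at 0.05, Dclk1 at -0.04 and Dcx at -0.365, the Dcx probes being apart at 0.52 and -1.25. Of 19 neuron markers measured, 18 lay above 0, 2 passed 2-fold upward, and their median was 0.62. The exception was Nefh at -0.78, dim, with probes at 0.12 and -1.67. Of all measured genes 50.9% lay above 0 and 1.02% were at least 2-fold higher, and of the brighter genes 67.8% and 0.842%. Stmn2 is on this list as well as on that of microtubule binding. The summed signal over the brightest probe of each marker was 20691 in control and 30135 in knockout lens, single markers reading from 31.2 to 8888 and from 14.2 to 12731, and 0 of the 19 were below background on both arrays. Uchl1 read 8888 and 12731, Snap25 2781 and 3018, Ina 1644 and 2283 and Sncg 1071 and 1770.1. Of 11 retinal progenitor markers 9 lay above 0, with a median of 0.23 and a summed signal of 23307 and 25360.1. The list includes Sox1, which lens fibres also make, at -0.27. Tuba1a, likewise a gene of neurons, read lower, but by a single spot in the last array column, where other bright spots also read low on the knockout array. Of 5 pigment epithelium markers and 5 erythroid markers measured, all were below 0, with medians of -0.40 and -0.30. Of 8 vessel and macrophage markers 6 were below 0, with a median of -0.27. At least 2-fold lower was 1, Ptprc, at 40.3 and 19.1, in the range where dim spike-in RNAs also read lower. Of all measured genes 5.86% were that low. Rpe65 was not well above background in either sample. Of 9 mesenchyme and cornea markers 5 were measured in both samples, all dim, and 3 of these, the collagen genes, lay above 0: Col3a1 at 1.51 and Col1a1 at 1.05, both past 2-fold, and Col1a2 at 0.50. The matrix genes Dcn and Lum were well above background in the knockout sample alone, at 22.2 and 158 for Dcn and 4.34 and 48.9 for Lum, control first. The keratin genes Krt5 and Krt14 lay at -0.31 and -0.96, and Kera and Krt12 were not well above background in either sample. The summed signal of the 9 was 386 and 695. The part of these cells in the tubulin differences was not tested.

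**Figure D4:**
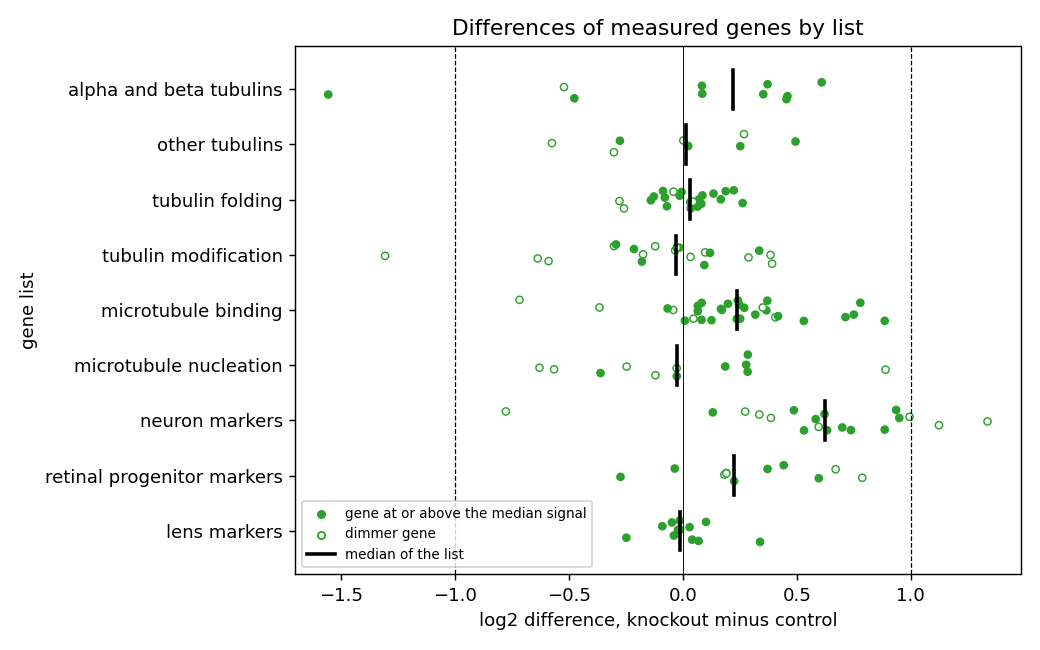
Log2 difference (knockout minus control) of each measured gene by list, filled for genes at or above the median signal and open for dimmer ones, with the median of each list as a bar and dashed lines at 2-fold. The tubulin folding genes cluster near 0, while the medians of microtubule binding genes and neuron markers lie at 0.24 and 0.62.

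Relative to the median of all measured genes, each member kept its side of 0 under every setting that gave it a value. Several settings tested this little. Division by the array medians and the percentile over measured probes shift all genes alike. Keeping outliers, dropping the background filter and leaving out the outermost columns changed no measured member's own difference. The brightest probe changed only those of Tuba1b and Tubb2b. Without the filter the median of all genes moved from 0.006 to -0.16. That set the upper end of each range below except those of Tuba1a and Tuba8. Tuba1a ranged from -1.71 to -1.27 over 9 alternatives. Over 10 alternatives Tuba1c ranged from 0.44 to 0.77, Tubb2b from 0.32 to 0.62, Tubb3 from 0.28 to 0.62, Tubb2a from 0.28 to 0.53, Tubb4a from 0.21 to 0.51, Tuba4a from -0.57 to -0.31 and Tuba8 from -0.58 to -0.33. Tuba1b and Tubb5 stayed nearest to 0, from 0.03 to 0.25 and from 0.02 to 0.24.

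**Figure D5:**
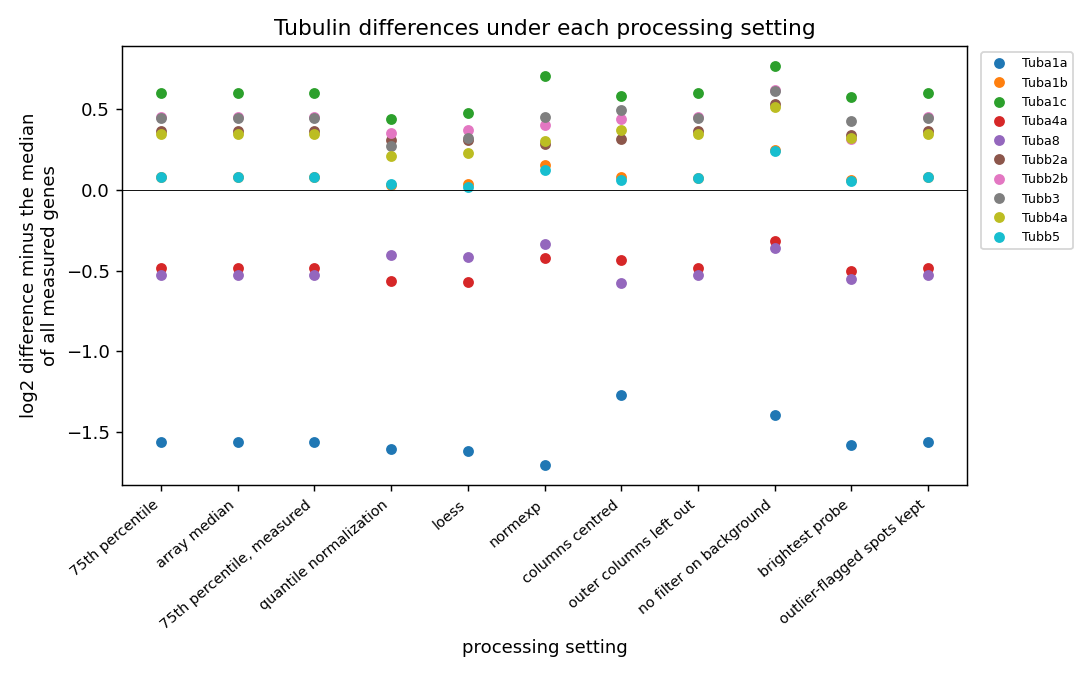
Log2 difference of each tubulin gene, less the median difference of all measured genes, under the reported processing (75th percentile) and 10 alternatives. Division by the array medians and the 75th percentile over measured probes match the reported processing by construction. Keeping outliers, dropping the background filter and leaving out the outermost columns changed no measured member's own difference, and moved at most the median subtracted. Tuba1a lies between -1.71 and -1.27 wherever it has a value and has none once the outermost columns are left out, and the other genes stay between -0.58 and 0.77.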

How the data were processed

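The authors deposited scanner output of 2 arrays, intensity per spot on a linear scale, extracted with Agilent Feature Extraction 10.7.3.1 per the file headers. The processed signal is background-subtracted by that software, and no scaling between arrays is recorded. Outlier, saturation and background flags are those of the deposited files. Both arrays held 59305 gene spots, of which 67.5% and 56.9% were well above background, and 0 were saturated. The number of arrays limits the precision.

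Control spots and spots flagged as outliers were left out, the log2 signal relative to the 75th percentile of gene spots was averaged over spots of a probe, and a gene was the mean of its probes with more than 50% of spots well above background on both arrays. A tubulin probe above background on 1 array alone was given a bound against the lowest signal called well above background (20.6 control, 12.1 knockout). Other genes above background on 1 array alone were given no bound. Of 55655 probes 27225 matched a symbol of the GRCm38.p6 RefSeq table, which also gave the promoters. The layout is annotated to another build, so no gene coordinates of it are used. Calculations used Python 3.11.15, R 4.3.3 and limma 3.58.1, tested on simulated data.

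Members and lists were chosen with earlier results of these data known. All 10 members are named with every probe. From the other lists come genes past 2-fold and up to 3 more with the largest difference, and from marker lists up to 4 with the highest signal. The other tubulins and Ttc5, and the probes of the last array column, were named after their values were seen. So were Npnt, Gja1, Lgsn, Map1b, Stmn4, Map2, Dclk1, Dcx, Nefh and Ptprc. Alternatives were array median scaling, a 75th percentile over measured probes, quantile, loess, no background filter, the brightest probe, outliers kept and, added after seeing the data, normexp (offset 50) on the median spot signal, column centring and leaving out the outermost columns. Normexp on the mean spot signal was not run, since that column was not used here.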

Additional observations from a re-analysis of the deposited data

How the results depend on the processing

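Division by the array medians gave 7 tubulin genes at least 2-fold higher, 0 at least 2-fold lower and a median of 1.30, where the reported processing gave 0, 1 and 0.22. That scaling adds 1.08 to every gene by its construction. Leaving out the outermost array columns gave 0 at least 2-fold lower, because it leaves Tuba1a without a value. Under the other settings 0 tubulin genes were at least 2-fold higher and 1 was at least 2-fold lower, and the median lay between 0.09 and 0.35 over all settings but division by the array medians. Tuba1a lay at -0.48 after division by the array medians, -1.26 after column centring and -1.69 after normexp. No paired analysis was possible because each genotype had 1 array, and no array could be left out. Normexp on the mean spot signal was not run. Below a control signal of about 81.0, where the dim spike-in RNAs read lower on the knockout array, signal over background limits the values of Tubb1, Tuba3a, Tuba3b and Agbl3.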
